A study of Homo sapiens with 2 samples.

Results

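The genes described are 8 transcription regulators with a helix-loop-helix (HLH) domain: *ID1*, *ID2*, *ID3*, *ID4*, *HES1*, *HES6*, *HEY1* and *NEUROG3*. They were taken by name, and every probe that the platform annotation pairs with one of these symbols was used, which gave 11 probes of 47323 on the array. All 8 genes had at least 1 probe, and *ID1*, *ID2* and *HEY1* had 2 each. RNA was hybridised to 1-colour Illumina BeadChips in 1 group of 2 samples, replicates 1 and 2. Both came from the human embryonic stem cell line HUES8, grown in suspension in mTesr medium and then taken through directed differentiation to stage 6, where insulin-expressing stem-cell-derived beta (SC-beta) cells appear. The labels give the cells as Nkx6.1+/Ins+ by flow cytometry, with RNA isolated by MARIS, a method for fixed, stained and sorted cells. No agent is named in the labels, both samples come from the same line, and there is no second group, so no comparison between conditions and no p-value is given.

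HLH proteins pair through their helix-loop-helix domain. Proneural factors such as NEUROG3 pair with E proteins and bind a DNA site called the E-box, which switches on neuronal or endocrine differentiation. ID proteins have the HLH domain but no DNA-binding basic region, so they hold E proteins off DNA. Their genes are well-known targets of bone morphogenetic protein (BMP) signalling through SMAD proteins. HES1 and HEY1 are repressors switched on by Notch signalling through the DNA-binding factor RBPJ, and in the embryonic mouse pancreas HES1 holds *Neurog3* down and so keeps progenitors from becoming endocrine cells. HES6 is a family member that counteracts HES1.

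The promoters of *HES1*, *HES6* and *NEUROG3* are shown because these genes stand in that Notch and proneural circuit. Each is the 250 bases before the RefSeq start of the gene in GRCh38.p14, 5′ to 3′ on the gene's strand. In *HES1* the capitals mark the RBPJ motif GTGGGAA and the N-box CACNAG, which HES proteins bind, and in *HES6* and *NEUROG3* they mark the E-box CANNTG. Both strands were searched for each motif, and the matches did not overlap.
HES1, chr3:194135898-194136147, plus strand: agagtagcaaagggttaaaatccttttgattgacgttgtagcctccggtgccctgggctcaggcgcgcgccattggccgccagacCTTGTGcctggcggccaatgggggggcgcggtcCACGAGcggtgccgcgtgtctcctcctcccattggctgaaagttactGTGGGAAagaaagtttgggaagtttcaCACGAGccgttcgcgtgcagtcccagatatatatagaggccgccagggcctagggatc
HES6, chr2:238240039-238240288, minus strand: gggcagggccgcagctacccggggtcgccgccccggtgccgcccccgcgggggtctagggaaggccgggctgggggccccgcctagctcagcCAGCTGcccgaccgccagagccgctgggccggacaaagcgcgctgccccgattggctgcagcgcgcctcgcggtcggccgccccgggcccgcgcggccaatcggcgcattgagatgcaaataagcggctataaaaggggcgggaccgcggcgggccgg
NEUROG3, chr10:69573423-69573672, minus strand: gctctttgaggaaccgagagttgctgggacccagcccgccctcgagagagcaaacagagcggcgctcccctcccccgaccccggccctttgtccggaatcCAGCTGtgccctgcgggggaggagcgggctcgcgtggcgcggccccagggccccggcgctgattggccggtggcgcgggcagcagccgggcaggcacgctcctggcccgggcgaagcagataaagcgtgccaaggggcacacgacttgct

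The *HES1* window held 1 RBPJ match and 3 N-box matches. Over 35116 promoter windows of the same length, 5.43% held the RBPJ motif, 32.0% the N-box and 61.8% the E-box. *ID2*, *ID4*, *HES6* and *NEUROG3* each had 1 E-box match, with the same letters, CAGCTG. *ID1* had 1 N-box match and *ID3* no match to these motifs. Neither the *HES6* nor the *NEUROG3* window held an N-box or RBPJ match. GGCGCC, a GC-rich element found in BMP-responsive genes, was in 16.4% of all windows and in none of the 7 searched; *HEY1* was not searched. A match is a run of letters and was not tested as a binding site, and the absence of a match covers this window alone.

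The values are normalized intensities, and a probe was called above background on an array if it exceeded a floor, the 95th percentile there of the 457 olfactory receptor probes, which was 18.0 on replicate 1 and 15.9 on replicate 2. By this rule 8 of the 11 probes were above background on both arrays, against 38.1% of 30113 probes with 1 named gene. By gene, 6 of 8 had at least 1 such probe (*ID1*, *ID2*, *ID3*, *HES1*, *HES6* and *HEY1*), against 46.9% of 20046 named genes. *ID4* was above background on replicate 2 alone, and *NEUROG3* on neither array. On replicate 1 alone 8 probes and 6 genes passed, against 43.4% of all named probes and 51.8% of genes, and on replicate 2 alone 9 probes and 7 genes, against 45% and 54.8%. The sorting marker gene *INS* had 16501 on both arrays and the granule gene *CHGA* 16678 and 16892, whereas *NKX6-1*, the other sorting marker, had 78.9 on replicate 1 and -4.24, under the floor, on replicate 2. Because the RNA came from a pool of sorted cells, fewer cells of a type and less RNA per cell cannot be told apart. A probe's brightness depends on its sequence as well as on the RNA, so the probes are compared between the arrays and not with each other.

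**Figure D1:**
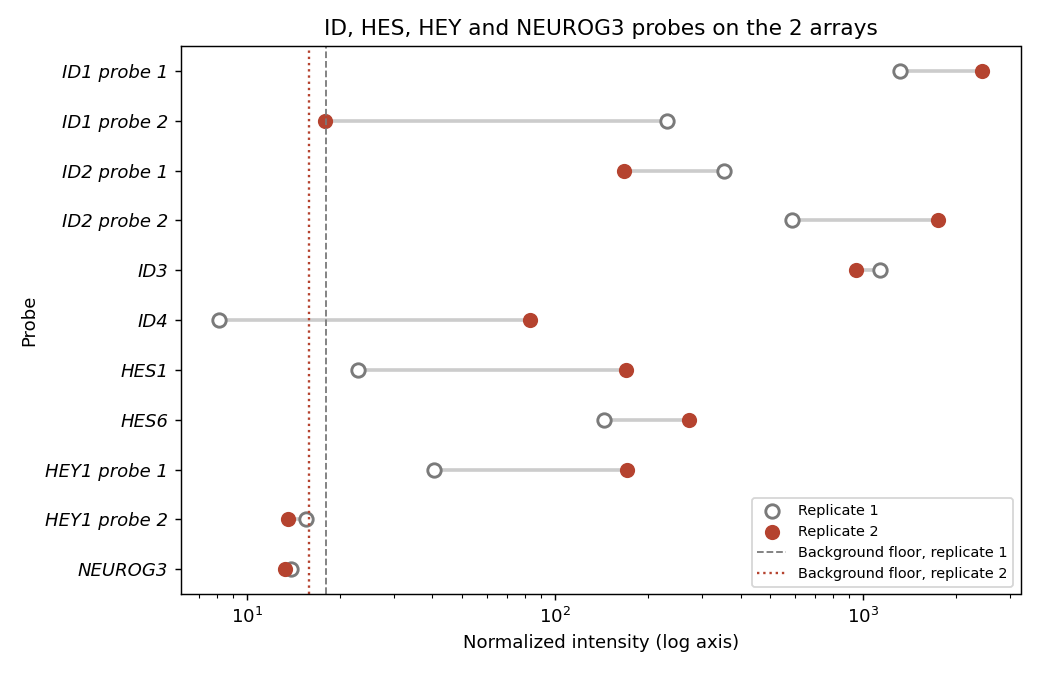
Normalized intensity (log axis) of the 11 probes on replicate 1 (open circles) and replicate 2 (filled circles), joined by a grey line for each probe. The dashed and dotted vertical lines are the background floors of replicates 1 and 2, 18.0 and 15.9. *NEUROG3* and the second *HEY1* probe lie left of both lines, and the second *ID1* probe goes from 230.2 to 17.9 while the first goes from 1320.4 to 2436.

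Of the 4 ID genes, *ID1*, *ID2* and *ID3* were far above background on both arrays and *ID4* on 1 only. *ID1*, an early BMP target, had 1320.4 on replicate 1 and 2436 on replicate 2 at its first probe (ILMN_1664861), which is 1878 ± 789 (SD, n = 2) and 73.3 and 154 times the floors. *ID2*, which also pairs with E proteins, had 587 and 1745 at its second probe (ILMN_2086095), or 1166 ± 818. *ID3* had 1132 and 948 at its only probe, or 1040 ± 130. Of the ID genes, *ID3* thus had the closest pair of values, with a log2 difference (replicate 2 minus replicate 1) of -0.26. *ID4*, the member of the family best known from neural and mammary progenitors, had 8.11 on replicate 1 and 83.0 on replicate 2. Its reading on replicate 1 exceeded 84.7% of the olfactory receptor probes, so it was not detectable there, and replicate 2 was at least 4.61-fold higher against the floor of replicate 1.

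The other probe of *ID1* and of *ID2* ran the opposite way. *ID1* had 230.2 on replicate 1 and 17.9 on replicate 2 at its second probe (ILMN_1665832), 12.9-fold lower in replicate 2, where the first probe was 1.84-fold higher. The value of 17.9 was 1.13 times the floor, and at a floor set at the 99th percentile of the olfactory receptor probes the probe was no longer above background on replicate 2 and was at least 8.41-fold lower there. *ID2* had 354 and 167 at its first probe (ILMN_1793990), 2.12-fold lower in replicate 2, where the second probe was 2.97-fold higher. With 50 added to the values before the log2 step, the first *ID2* probe had a difference of -0.90, short of 2-fold, and the second *ID1* probe -2.05 in place of -3.69. The annotation gives both *ID1* probes the same RefSeq transcript, and likewise both *ID2* probes. No single direction between the replicates can therefore be given for either gene.

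Such disagreement between probes was measured over all genes with 2 or more probes above background on both arrays, 1844 in number. In these the log2 differences of a gene's probes lay a median of 0.66 apart, and in 31.5% they lay 2-fold or more apart. The *ID1* probes lay 4.57 apart, a distance reached by 4 genes with *ID1* included, and those of *ID2* 2.65 apart, reached by 49 genes with *ID2* included. *ID2* was 1 of 17 genes with a probe 2-fold or more higher and another 2-fold or more lower. In 60.5% of the 1844 genes the second brightest probe had a lower difference than the brightest, as both ID genes did.

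**Figure D2:**
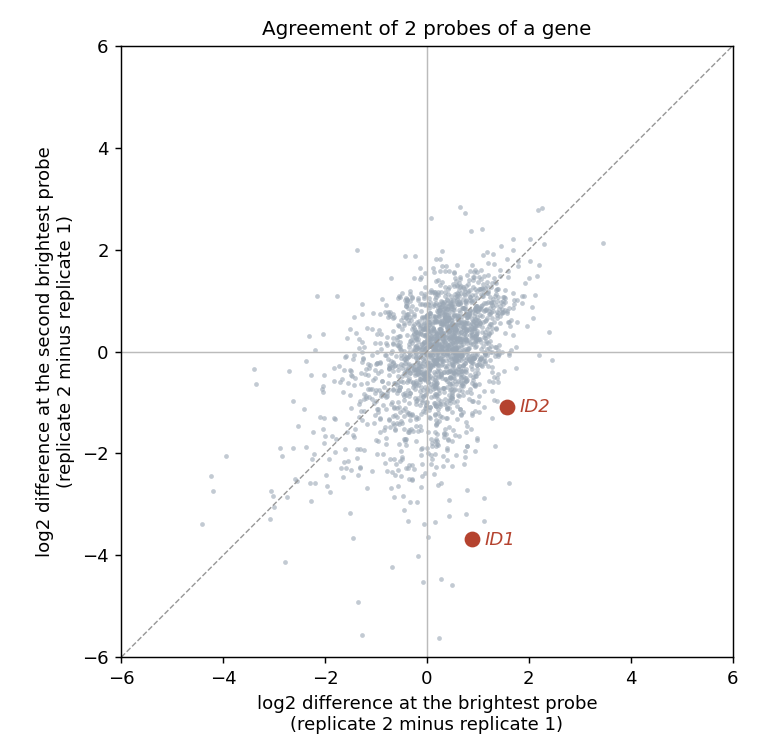
Each point is a gene with 2 or more probes above background on both arrays (1844 genes), with the log2 difference (replicate 2 minus replicate 1) at its brightest probe on the horizontal axis and at its second brightest on the vertical axis, and equality on the dashed line. *ID1* (0.88 and -3.69) and *ID2* (1.57 and -1.08) lie at the lower right, where the probes have opposite signs.

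The Notch target repressors *HES1* and *HEY1* were low on replicate 1 and higher on replicate 2. *HES1* had 22.9 and 169.6 on replicates 1 and 2, or 96.3 ± 104 (SD, n = 2), a difference of 2.89 on the log2 scale. Its value on replicate 1 was 1.27 times the floor and exceeded 97.4% of the olfactory receptor probes. At the 99th percentile floor it was not above background on replicate 1, and replicate 2 was at least 5.25-fold higher. *HEY1* had 40.3 and 171 at its first probe (ILMN_1788203), 4.25-fold higher in replicate 2. Its second probe (ILMN_2407308) had 15.6 and 13.5 and was under the floor on both arrays, so the difference rests on 1 probe. With the offset of 50 the log2 differences were smaller, 1.59 for *HES1* and 1.29 in place of 2.09 for *HEY1*. In within-array rank among all 47323 probes, *HES1* went from the 68.0th to the 87.0th percentile and the first *HEY1* probe from the 74.0th to the 87.1st.

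*HES6*, which proneural factors switch on in differentiating neurons of frog and mouse embryos, had 144 and 271 on replicates 1 and 2, or 208 ± 90.02. It was above background on both arrays, at 7.99 and 17.1 times the floors, and replicate 2 was 1.88-fold higher, under the 2-fold mark. *NEUROG3*, the proneural factor of endocrine progenitors, had 13.9 and 13.3, or 13.6 ± 0.460. These readings exceeded 92.8% and 90.8% of the olfactory receptor probes, and the transcript was not detectable at this background on either array. At a floor set at the 90th percentile of those probes, 11.9 and 12.1, *NEUROG3* and the second *HEY1* probe passed on both arrays.

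Among the 8 probes that passed on both arrays, 3 had a value in replicate 2 at least 2-fold higher (*HES1*, the first *HEY1* probe and the second *ID2* probe), against 13.0% of 11467 such probes, and 2 were 2-fold or more lower (the second *ID1* probe and the first *ID2* probe), against 12.1%. The median difference of the 8 was 0.90 on the log2 scale, and that of all 11467 was 0.18, with an SD of 0.95. A positive difference as large as that of *HES1* was seen in 0.122% of the 11467 probes, and as large as that of *HEY1* in 0.715%. As large a negative one as that of the second *ID1* probe was seen in 0.314%. Each share counts 1 direction only. With 1 array for each replicate these differences have no replicate check of their own.

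**Figure D3:**
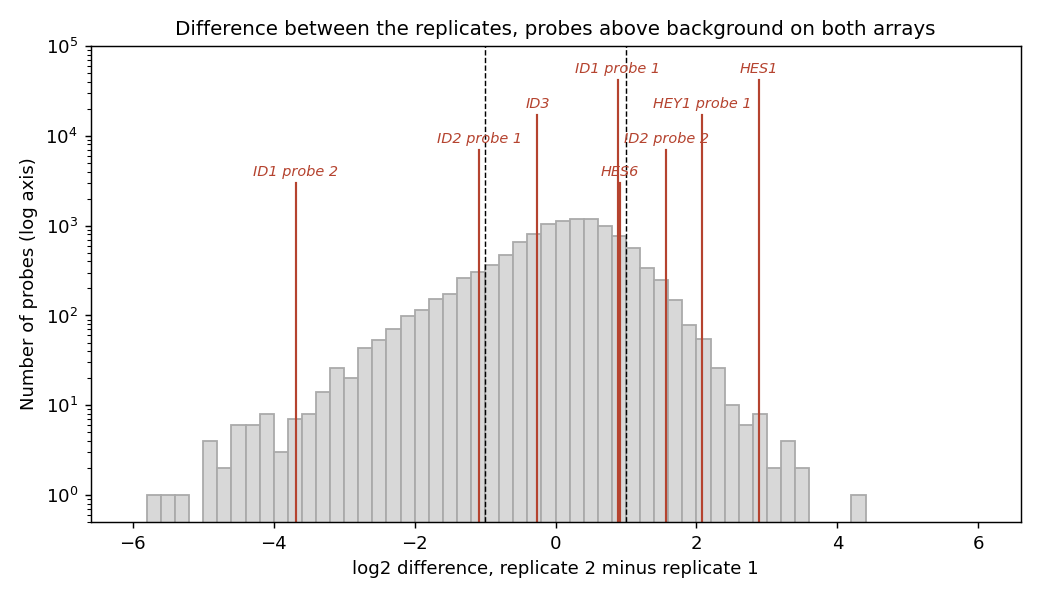
Histogram of the log2 difference (replicate 2 minus replicate 1) of the 11467 probes above background on both arrays, with the number of probes on a log axis. The red lines mark the 8 probes of *ID1*, *ID2*, *ID3*, *HES1*, *HES6* and *HEY1*, of which 3 lie right of the dashed line at 1 and 2 left of that at -1.

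Marker genes of other cells were read beside these differences. Of 7 progenitor and duct markers, 3 were above background on replicate 1 and 5 on replicate 2, with summed intensities of 1101 and 1271. *CFTR*, a duct chloride channel, read 29.3 and 216, and *SOX9*, a progenitor and duct factor, 31.2 and 51.3. *KRT19*, an epithelial keratin that makes up most of these sums, had 1022 and 926, a log2 difference of -0.14, while *ONECUT1* and *PTF1A* were above background on neither array. Of 10 mesenchymal markers, 4 were above background on replicate 1 and 9 on replicate 2, with sums of 421 and 579. *COL3A1*, a fibroblast collagen, had 12.3 and 76.6, whereas *TAGLN*, a smooth muscle gene, had 205 and 112 at its brightest probe, and the collagens *COL1A1* and *COL1A2* had 18.8 and 20.1 and 41.2 and 45.3. The median log2 difference of the 4 mesenchymal genes above background on both arrays was 0.12, and *LUM* was above background on neither array. Of 10 proliferation genes the counts were 4 and 8 and the sums 254 and 731, with *MKI67* and *BUB1* above background on neither. The median log2 difference of the 4 above background on both arrays was 0.96, with 2 higher by 2-fold or more and 0 lower. These 2 were *CCNB1* (21.6 and 75.7) and *PCNA* (84.4 and 220 at its brightest probe), and *TOP2A* had -2.05 and 85.4. Over all named genes 51.8% were above background on replicate 1 and 54.8% on replicate 2. The progenitor and duct, mesenchymal and proliferation lists had more members above background on replicate 2, where *HES1*, *HEY1* and *ID4* had higher values. The part of these lists in the differences was not tested. All 5 neuronal markers passed on both arrays, with 1 higher by 2-fold or more in replicate 2 and 1 lower. The higher one was *SNAP25* (401 and 1088 at its brightest probe, 39.5 and 6.17 at the other). The lower one was *TUBB3* (1695 and 661), and both were named after their values were seen. Whether the neuronal marker readings came from neurons or from the SC-beta cells was not tested. Of 4 stem cell markers 2 passed on replicate 1 and 1 on replicate 2. Of 5 endothelial markers only *CLDN5* passed on either array, with 99.5 and 23.1.

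Among the other HES and HEY genes and the related *BHLHE40* and *BHLHE41* none was higher in replicate 2 by as much as 2-fold. Of the 9 with a probe, 4 passed the floor on both arrays, 0 being 2-fold or more higher in replicate 2, against 13.5% of 9393 genes at their brightest probe, and 1 lower, against 10.9%. That was *HES4*, a close relative of *HES1*, with 839 and 101 on replicates 1 and 2, 8.32-fold lower in replicate 2. *HES5*, a Notch target of neural progenitors, had 36.1 and 38.8, and *HEY2* 51.9 and 53.3, so both differed little between the arrays. *BHLHE40*, the remaining gene above background and chosen once its values were known, had 112 and 197. *HEYL* had 14.2 and 7.18 and was under the floor on both.

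Upstream in the Notch pathway, all 8 ligand genes measured passed the floor on both arrays, against 46.9% of all genes, with 2 higher by 2-fold or more in replicate 2 and 3 lower. At the 99th percentile floor 6 passed, against 40.6% of all genes, without *JAG1* and *DLL4*. For these lists, as above, 13.5% of all genes were higher and 10.9% lower at their brightest probe. The lower ones, named after their values were seen, were *DLK1* (6652 and 2615) and *DLK2* (167 and 57.5), both non-classical ligands, and *JAG2* (96.6 and 44.3), each at its brightest probe. The higher ones were *JAG1* (22.4 and 64.2) and *DNER* (103 and 230), a non-classical ligand likewise named after its values were seen. *DLL1* had 113 and 79.6, and *DLL4* 28.3 and 18.9. Of 4 receptor genes, only *NOTCH1* was above background on both, with 58.8 and 56.2, a difference of -0.07. *NOTCH3* had 7.91 and 31.7 and passed on replicate 2 alone, and none of the 3 *NOTCH2* probes passed on either. *RBPJ*, the nuclear mediator of Notch, had 3 probes, of which the highest reading was 5.76, all under the floor. Of 29 genes for processing and mediators of Notch, 18 were above background on both arrays (22 on replicate 1 and 18 on replicate 2), 2 of them higher by 2-fold or more and 4 lower. The higher ones were *TLE1* (18.6 and 149) and *TLE4* (18.5 and 175 at its brightest probe), corepressors that HES proteins recruit. Both read just over the floor of 18.0 on replicate 1, and the other *TLE4* probe had 8.66 and 17.3. The lower ones were *APH1A*, a subunit of the gamma-secretase that cuts Notch (813 and 38.0), the Notch glycosyltransferases *MFNG* (212 and 53.5) and *LFNG* (144 and 64.1), and *DTX2* (159 and 68.5). These are values of the brightest probes, and the other *LFNG* and *DTX2* probes were under the floor on both arrays. *PSENEN*, another gamma-secretase subunit, read 145 and -1.98, a value at least 9.11-fold lower in replicate 2. These 7 genes are named after their values were seen.

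BMP pathway genes were read for the ID genes. Of 12 BMP ligand genes 3 were above background on both arrays and 5 on replicate 2, against 46.9% and 54.8% of all genes. *BMP2* had 65.5 and 100.4, *BMP7* passed on replicate 2 alone with 9.61 and 23.2, and *BMP4* passed on neither array. *BMPR2*, the type II BMP receptor, had 37.6 and 163 at its brightest probe and 36.6 and 79.4 at the other, so both probes were 2-fold or more higher in replicate 2. Of 7 receptor genes 3 were above background and 2 were higher by 2-fold or more. *SMAD6*, an inhibitory SMAD and itself a BMP target, had 27.4 and 110.4, 4.02-fold higher in replicate 2, and *SMAD4*, the common SMAD, had 131 and 363. *BAMBI*, a decoy receptor that BMP also induces, had 33.1 and 249, 7.52-fold higher. *SMAD7*, the other inhibitory SMAD, had 41.3 and 48.4, a difference of 0.23, and *SMAD5*, a BMP effector, 320.4 and 601 at its brightest probe but 47.5 and 32.2 at another. *SMAD9*, another BMP effector and likewise chosen once its values were known, read 153 and 51.9 at its brightest probe, 2.95-fold lower in replicate 2, and *SMAD1* was under the floor at both probes. Of 6 SMAD genes 5 were above background, with 2 higher by 2-fold or more and 1 lower, and of 13 inhibitor genes 4 were (2 at the 99th percentile floor), with 1 higher.

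The E proteins, with which ID proteins and proneural factors pair, differed in direction. *TCF3* had 253 and 71.9, 3.51-fold lower in replicate 2, *TCF12* 53.1 and 63.8 at its brightest probe, and *TCF4* 2.22 and 82.6, at least 4.59-fold higher against the floor of replicate 1. Of 17 other proneural and related HLH genes, 2 were above background on both arrays (4 on replicate 2, and 1 on both at the 99th percentile floor). The 2 were *NEUROG2* (21.3 and 24.4), close to the floor, and *ASCL2* (1879 and 582), a factor known from intestinal stem cells, both named after their values were seen. Genes that act downstream of *NEUROG3* were detected without *NEUROG3* itself, since 11 of 11 measured passed the floor on both arrays, against 46.9% of all genes, with 1 higher by 2-fold or more in replicate 2 and 1 lower. *INSM1*, an endocrine zinc-finger factor, had 3799 and 5650.0, *NKX2-2* 2973 and 2921, *PAX4* 894 and 416, and *RFX6* 229.7 and 509 at its brightest probe, with 151 and 147 at the other.

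**Figure D4:**
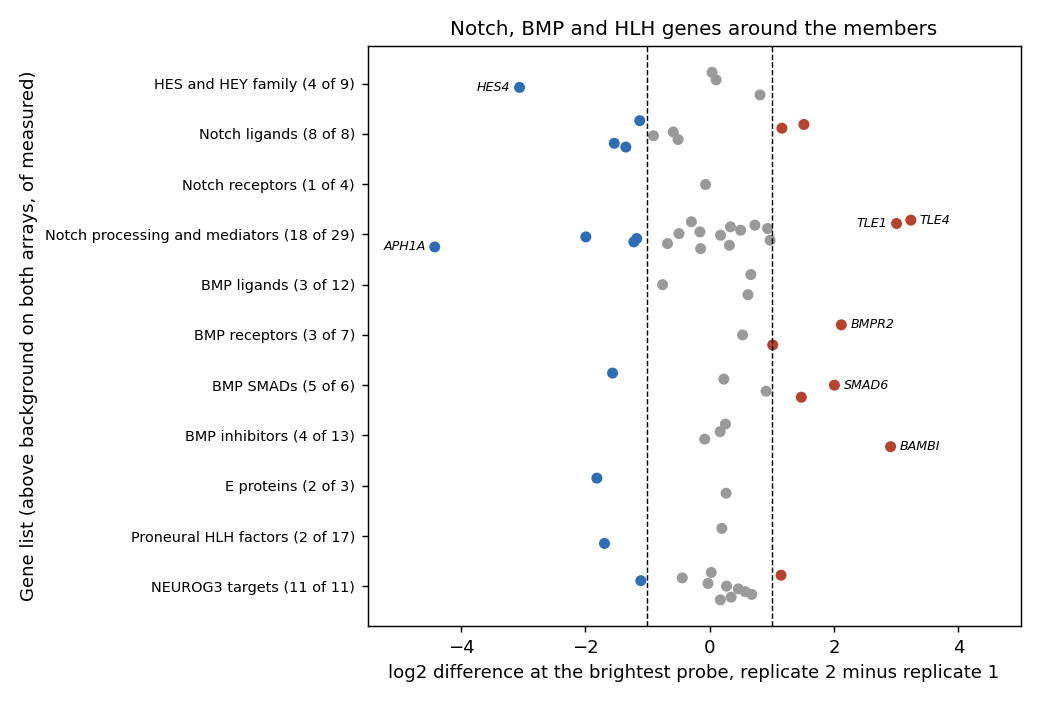
Log2 difference (replicate 2 minus replicate 1) at the brightest probe of each gene above background on both arrays, by gene list; the counts give such genes of those measured. Red points are 2-fold or more higher in replicate 2, blue points 2-fold or more lower and grey points between; *HES4* (-3.06) and *BAMBI* (2.91) lie far apart.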

How the data were processed

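The deposited file gives 1 linear intensity for each probe and array. GenomeStudio is named in the submitters' processing notes, and the design text says that the arrays were normalized by the authors together with published ones, which were not analysed here. The values reach -22.6, and the sorted values of both arrays differ by at most 0.155, as background subtraction and quantile normalization leave, so a shift common to the whole transcriptome would be hidden. No detection p-value was used.

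Of 47323 probes, 30113 had 1 gene in the platform annotation, 8 had several and 17202 were not listed. Symbols were updated through the Entrez identifier for 30074. Log2 differences were taken for probes above the floor on both arrays. For a probe above it on 1 array, a lower bound against the floor, or the probe's own value if higher, is given. A gene in a list is represented by its brightest probe above background. Summed intensities take these probes, with negative values as 0. The calculation was run on simulated data (Python 3.11.15, pandas 2.3.3). These used probes far above the floor with little noise, so they say nothing on calls near the floor. The members and the 11 lists around them (119 of 127 genes measured) were chosen with earlier results of these data known. Named were every member probe and listed partners and targets. The 2 arrays limit the precision, nothing beyond the design text says how separate the replicates are, and no test was possible. Probe sequences were not used here. Alternatives were other floors, an offset of 50, centring, removal of a brightness trend in 20 bins, other choices of probe, and each array alone.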

Additional observations from a re-analysis of the deposited data

How the results depend on the processing

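No paired analysis was possible because there is 1 group. The number of the 11 probes above background lay between 8 and 9 with either array alone, and that of the 8 genes between 6 and 7. At the 90th percentile floor 10 probes and 7 genes passed, against 41.8% of all named probes and 50.9% of genes. At the 99th percentile floor 6 probes and 5 genes passed, against 32.4% and 40.6%. Over the lists around the members, 61 of 119 genes were above background on both arrays, against 46.9% of all genes. On replicate 1 alone 66 passed, against 51.8% of all genes, and on replicate 2 alone 69, against 54.8%. The count of probes 2-fold or more lower in replicate 2 was 2, against 12.1% of all such probes. It was 1 with an offset of 50 (6.81% of all), at the 99th percentile floor (11.3%) and by each gene's median probe (11.3%). By the brightest probe it was 0 (10.9%). The count higher was 3, against 13.0% of all, and 2 at the 99th percentile floor (11.5%) and by the median probe (12.6%). It stayed at 3 with the offset, where 4.41% of all probes were higher. The median difference of 0.90 became 0.41 at the 90th percentile floor, 1.24 by the brightest probe and 0.58 by the median probe. Centring and trend removal left both counts as they were, and no difference of 2-fold or more changed sign. After centring, 8.38% of all probes were 2-fold or more higher and 14.9% lower, and after trend removal 7.95% and 15.0%.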
